A study of Mus musculus with 12 samples.

Results

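Primary hippocampal neurons dissected from RjOrl:SWISS mouse embryos, an outbred stock, were cultured in 2 replicates, and each replicate was collected at 6 ages from 0 to 15 DIV (days in vitro), with 1, 3, 6 and 12 DIV between. The comparison described here sets the 6 arrays of replicate 1 (batch letter B) against the 6 arrays of replicate 2 (batch letter A), so that all 12 arrays of the series enter it as 6 pairs of equal culture age. The embryos were e17.5 to 18.5, no treatment distinguished the replicates, and both received cytosine arabinoside (1 µM), which stops dividing cells, at 3 DIV. The sample called 1 DIV was taken at 20 h. The labels give no sex and no number of pooled embryos, and the methods take the batch to be the date of the experiment. Each replicate is 1 series of cultures, and culture and batch cannot be told apart. The p-values therefore measure how steady a difference between these 2 cultures was over 6 ages, and not how far hippocampal cultures vary in general.

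A dissected embryonic hippocampus yields neurons together with radial glia and other progenitors, oligodendrocyte precursors, a few microglia, and vessel, meningeal and choroid plexus cells. Progenitors divide and give rise to astrocytes over the first weeks of culture, while neurons stop dividing before plating and go on to form synapses. Neurons also transcribe immediate early genes, such as *Fos* and *Npas4*, within minutes of electrical activity or handling, and any of these cells can switch on the integrated stress response, in which the transcription factor ATF4 raises genes of amino acid supply. In RNA from a whole dish, fewer cells of a type and less RNA per cell cannot be told apart.

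The arrays (Affymetrix Mouse Gene ST) gave RMA values on a log2 scale, and all levels and differences below are on that scale, with every difference taken as replicate 1 minus replicate 2. A value of 1 is thus a 2-fold difference. For each of 20358 genes the stable difference is the mean of the 6 paired differences, tested by limma. Its p-values were adjusted by Benjamini-Hochberg over the 20358 genes, and a gene was called where the adjusted p was below 0.05. Neuronal markers were strong in both cultures, with *Snap25*, a synaptic fusion protein, at 9.99, 9.99, 10.60, 11.02, 11.84 and 11.84 in replicate 1 and 9.80, 9.93, 10.36, 10.76, 11.48 and 11.69 in replicate 2 (0 to 15 DIV in this order, here and below). Paired arrays correlated across genes with Pearson's r of 0.944 (12 DIV) to 0.979 (1 DIV). The 12 DIV array of replicate 1 stood apart. Its best correlation with any array of replicate 2 was r = 0.947, against 0.964 to 0.979 for the best match of each of the other 11 arrays in the opposite culture, and the SD of the paired difference over genes was 0.64 at 12 DIV against 0.37 to 0.52 at the other ages. The dimmest 6786 genes had a median difference of 0.33 at 12 DIV, and the brightest 6786 had -0.17 (between -0.07 and 0.12 for both groups at the other ages). This shift bears on every value at 12 DIV below. Genes of middle signal had a median difference of -0.02 at 12 DIV. After 12 DIV the least alike pair was that of 3 DIV, with r = 0.964 and an SD of 0.52. The 3 DIV array of replicate 2 correlated better with the 1 DIV array of replicate 1 (r = 0.969) than with its 3 DIV array. Best matches at another age also occurred among the arrays of 6 to 15 DIV. The mismatch at 3 DIV bears on the differences at that age below.

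**Figure D1:**
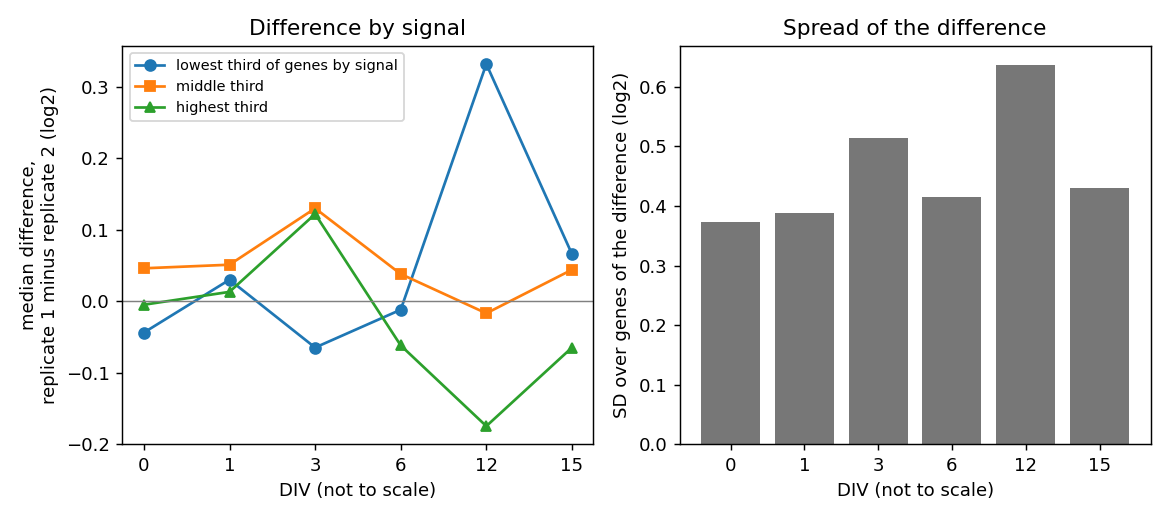
Median difference between cultures for genes of low, middle and high mean signal (left, log2, by DIV) and SD of the difference over all genes (right, bars, log2). At 12 DIV the 6786 dimmest genes sit at 0.33 and the 6786 brightest at -0.17, and the SD reaches 0.64.

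The cultures differed steadily in many genes. Replicate 1 was higher in 1019 genes (5.01% of those tested) and replicate 2 in 536 (2.63%). With each array centred on its median, the split was 725 to 946, and with quantile normalization of the gene values it was 1073 to 859, so which culture held more called genes depends on the scaling. Most differences were small. Only 75 of the genes higher in replicate 1 and 36 of those higher in replicate 2 differed by more than 1. All 6 values of replicate 1 lay above all 6 of replicate 2 in 363 genes (1.78%), and the reverse held in 205 (1.01%). Without the 12 DIV pair the counts were 811 and 360, of which 705 and 287 were also called with 6 pairs. Leaving out 1, 3, 6 or 15 DIV instead left 278 to 380 genes higher in replicate 1 and 95 to 142 higher in replicate 2, so many calls lie near the threshold. Of 80 named genes called, 35 kept their call in all 6 fits that leave out 1 pair.

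The largest difference by far was in *Chchd2*, which encodes a protein of the mitochondrial intermembrane space. Its signal was 9.67, 10.61, 10.66, 10.16, 10.60 and 10.65 in replicate 1 and 4.63, 5.05, 4.35, 4.99, 5.0 and 5.58 in replicate 2. The lowest value of replicate 1 was far above the highest of replicate 2. The gene value came from 1 selected probeset. The values of replicate 2 lay near the level of dim probesets, the odorant receptors having medians of 5.09 to 5.52 in that culture. The stable difference was 5.46 (SE 0.17, limma adjusted p = 9.34e-08), with a 95% confidence interval of 5.09 to 5.83, and both probesets of the gene were higher in replicate 1. *Lsm4*, a subunit of the ring that binds U6 small nuclear RNA, differed by 2.83 (SE 0.15, limma adjusted p = 7.18e-06), and its 6 probesets all pointed the same way. *Hmgn1*, a nucleosome-binding protein, stood at 9.26, 9.96, 9.98, 9.66, 9.43 and 9.61 against 6.92, 7.40, 7.27, 7.0, 7.23 and 6.77. Its difference of 2.55 (SE 0.12, limma adjusted p = 3.4e-06) rested on 3 of 4 probesets. *Nnat*, an imprinted membrane proteolipid abundant in developing brain, differed by 2.09 (SE 0.13, limma adjusted p = 2.4e-05), *Ctxn1*, a neuronal membrane protein, by 2.27, and *Hes6*, a transcription factor of neuronal differentiation, by 2.32. The probesets were divided in these 3 genes, with 3 of 4, 1 of 2 and 4 of 6 higher in replicate 1. Such division was common. Of 985 called genes higher in replicate 1 with 2 or more probesets, 340 had all of them higher, and of 477 in the opposite direction 136 had all of them lower. The other members of the 10 largest were *Gm1673* (2.57), *Zfp593* (2.57), *Rps19bp1* (2.46) and *Siah1b* (2.11), a ubiquitin ligase. In all 10 genes the ranges of the cultures did not overlap, and each kept its call in all 6 fits that leave out a pair.

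In the opposite direction the differences were smaller. *Cwc22*, a splicing factor, gave 7.96, 8.79, 8.90, 8.06, 7.90 and 7.58 in replicate 1 and 10.33, 10.59, 10.32, 9.81, 9.73 and 9.66 in replicate 2, a gap that held from 0 to 15 DIV. Its stable difference was -1.88 (SE 0.13, limma adjusted p = 5.05e-05), and 19 of 20 probesets were lower in replicate 1. *Ssty2* and *Slxl1*, members of multicopy families on the sex chromosomes that are known from spermatids, differed by -1.65 (SE 0.16, limma adjusted p = 0.000552) and -1.65 (SE 0.16, limma adjusted p = 0.000552), with all 7 and all 6 probesets lower in replicate 1. *Gm8020* had the largest difference of this direction at -2.10 (SE 0.26, limma adjusted p = 0.00284). *Gm4567* (-1.74), *Gm5458* (-1.62), *Gm2467* (-1.46), *Vmn1r148* (-1.34), a pheromone receptor, *5730507C01Rik* (-1.33) and *Nmbr* (-1.32), the neuromedin B receptor, completed the 10. The calls of *Gm5458*, *Gm2467* and *Nmbr* were lost in some fits that leave out 1 pair, where their adjusted p reached 0.0737, 0.112 and 0.0841. Probes of multicopy genes can share sequence with their relatives, so the values of the *Ssty*, *Slxl* and vomeronasal members are uncertain as to the copy.

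**Figure D2:**
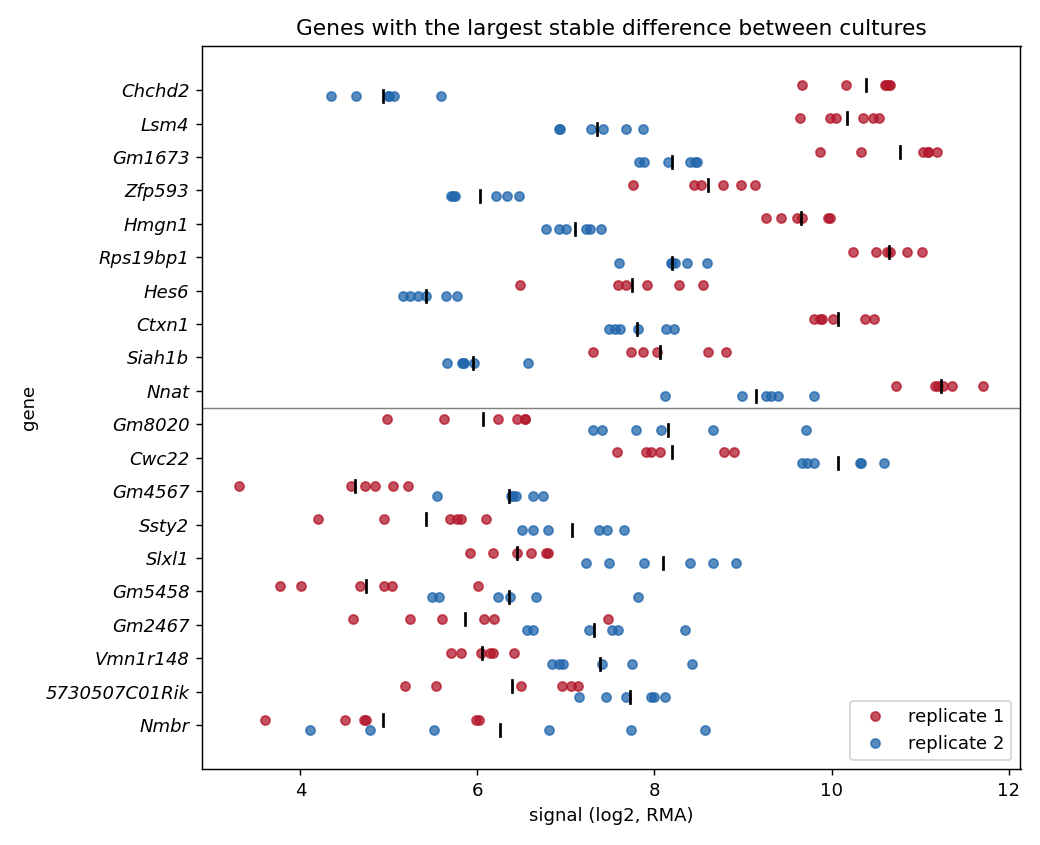
Signal (log2, RMA) of the 10 genes with the largest stable difference in each direction, each point 1 array and each black tick the mean of 6 arrays of a culture. *Chchd2* shows the widest gap, with replicate 1 between 9.67 and 10.66 and replicate 2 between 4.35 and 5.58.

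Because 1 array stood for a culture at each age, differences limited to part of the time course were counted by size. Over all genes, replicate 1 was higher by more than 1 in 0.84% at 0 DIV, 1.06% at 1 DIV, 3.47% at 3 DIV, 1.43% at 6 DIV, 5.93% at 12 DIV and 1.75% at 15 DIV. Replicate 2 was higher by more than 1 in 0.865%, 0.752%, 1.76%, 1.09%, 3.99% and 1.03%. In the limma test of an early to late shift, the mean difference at 6, 12 and 15 DIV minus that at 0, 1 and 3 DIV, 0 genes passed (0%), while 1914 had an unadjusted p under 0.05. Each age was also set against the other 5. At 0, 1, 3, 6 and 15 DIV 0 genes passed (0% each), with 928, 301, 1455, 320 and 686 genes at an unadjusted p under 0.05. At 12 DIV the difference was raised in 175 genes (0.86%) and lowered in 97 (0.476%). No list below therefore has a tested change of its difference with age except through 12 DIV, and the values by age are descriptions.

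Astrocyte genes were more abundant in replicate 1 from 3 DIV on. Of 16 measured, 4 were called and higher in replicate 1, against 5.01% of all genes, and 0 in replicate 2, and the median stable difference was 0.60 against 0.02 over all genes. The median difference by age was -0.14, 0.19, 0.56, 0.89, 0.69 and 0.70, while that of all genes ran from -0.01 to 0.06. At 3, 6, 12 and 15 DIV, 7, 6, 5 and 3 of the 16 genes were higher by more than 1, against 3.47%, 1.43%, 5.93% and 1.75% of all genes, and none was lower by more than 1 at any age.

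*Apoe*, the lipid carrier secreted by astrocytes, was measured at 9.64, 8.86, 10.68, 12.40, 12.81 and 12.90 in replicate 1 and 9.04, 7.97, 8.36, 9.65, 11.46 and 11.85 in replicate 2. Values were higher at later ages in both cultures, and replicate 1 was the higher at each age. The difference was 1.49 (SE 0.26, limma adjusted p = 0.0118) and was widest at 6 DIV (2.75). *Gfap*, the astrocyte intermediate filament, gave 6.31, 9.15, 8.91, 9.67, 8.74 and 9.48 against 6.43, 8.37, 6.89, 7.82, 8.88 and 8.99. Here the cultures were alike at 0 and 12 DIV and lay 2.02 and 1.85 apart at 3 and 6 DIV, and the stable difference of 0.81 did not pass (limma adjusted p = 0.0975). *Aqp4*, the water channel of astrocyte endfeet, gave differences of -0.51, 0.14, 1.78, 1.57, 1.31 and 0.66. *Aldh1l1*, a folate enzyme used as an astrocyte marker, differed by 0.81 (SE 0.21, limma adjusted p = 0.0469). *Aldoc*, the brain aldolase, differed by 0.89 (SE 0.22, limma adjusted p = 0.0366), and *Sox9*, a glial transcription factor, by 0.59 (SE 0.13, limma adjusted p = 0.0273). Of these 4 calls only that of *Apoe* was kept in all 6 fits that leave out a pair, and the list had 9 calls without the 0 DIV pair and 1 without any other pair, with medians of 0.47 to 0.75. *S100b*, a calcium-binding protein of mature astrocytes, was the member called at 12 DIV, with 6.29, 6.31, 6.42, 7.20, 9.17 and 8.21 in replicate 1 and 6.30, 6.46, 6.44, 6.42, 6.43 and 7.12 in replicate 2, a deviation of 2.40 (SE 0.46, limma adjusted p = 0.0403). Adjusted over all 6 ages together this call was lost (adjusted p = 0.209). *Slc1a2*, the main astrocytic glutamate transporter, differed by no more than 0.24 at any age.

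Genes of the oligodendrocyte lineage gave 1 call. It was *Mbp*, a myelin protein, of 12 measured, against 5.01% of all genes, at 0.47 (SE 0.12, limma adjusted p = 0.0406) and widest at 15 DIV (0.86), and no member was called in 5 of the 6 fits that leave out a pair. The median stable difference was 0.27, and by age the medians were 0.07, 0.37, 0.19, 0.33, 0.38 and 0.21. At 3 DIV 8 of the 12 differences were positive. *Pdgfra*, the growth factor receptor of the precursors, stood at 6.77, 6.14, 8.28, 10.12, 10.91 and 11.03 in replicate 1 and 6.69, 5.70, 6.06, 8.26, 10.30 and 10.80 in replicate 2. The cultures began and ended within 0.23 of each other and were 2.22 and 1.86 apart at 3 and 6 DIV. *Olig2*, a transcription factor of the lineage, was apart by -0.17, 2.01, 1.86, 0.78, 0.53 and 0.21. The stable differences of *Pdgfra* and *Olig2* had limma adjusted p = 0.0657 and 0.0706. Microglial genes were called about as often as all genes, with 1 of 15 called, the adaptor *Tyrobp* (0.55 (SE 0.13, limma adjusted p = 0.0326)), and a median of 0.09. The call of *Tyrobp* was kept in 1 of the 6 fits that leave out a pair. Microglial medians by age were -0.051, 0.239, 0.282, -0.44, 0.165 and 0.045, with 13 of 15 differences positive at 3 DIV and 3 at 6 DIV. *Aif1*, a cytoskeletal protein of microglia, differed by -0.34 (adjusted p = 0.241).

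Markers of other cells gave few calls. *Ttr*, the thyroid hormone carrier made by choroid plexus, was lower in replicate 1, at 9.79, 9.06, 9.68, 9.18, 8.18 and 7.88 against 10.87, 10.47, 10.14, 10.55, 9.14 and 8.46. Values were lower at 12 and 15 DIV in both cultures, and replicate 1 was the lower at each age, a difference of -0.98 (SE 0.15, limma adjusted p = 0.00688) that was kept in all 6 fits without 1 pair. The choroid plexus and ependyma list had 1 of 8 genes called, against 2.63% of all genes higher in replicate 2. Its medians by age were -0.14, -0.15, -0.27, -0.53, 0.37 and -0.13, and at 12 DIV 6 of the 8 differences were positive. Among 14 fibroblast and meningeal genes, *Foxc1*, a transcription factor of meninges, was called (0.60 (SE 0.14, limma adjusted p = 0.0358)), while *Col1a1*, a fibrillar collagen, differed by -0.18 (adjusted p = 0.327). The share of all genes called higher in replicate 1 was 5.01%, and the call of *Foxc1* was kept in 1 of the 6 fits. None of 13 endothelial and mural genes and none of 6 erythroid genes was called by limma. *Hbb-b1*, an adult beta globin, nevertheless gave differences of -0.74, -2.96, -3.09, -1.31, 2.57 and 0.09. Its signal was 9.99, 7.38, 5.72, 4.27, 6.17 and 3.65 in replicate 1 and 10.73, 10.35, 8.81, 5.57, 3.60 and 3.56 in replicate 2. Replicate 2 held the higher value from 0 to 6 DIV, and the 12 DIV array of replicate 1 was above the arrays before and after it.

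Among genes of dividing cells, those of mitosis separated the cultures most at 1 and 3 DIV. Those of S phase did so most at 3 DIV and had a negative median at 15 DIV. Of 24 measured genes of mitosis, 5 were called and higher in replicate 1, against 5.01% of all genes, and 0 in replicate 2, and 23 had a positive mean difference. Median differences by age were 0.20, 0.85, 1.17, 0.50, -0.03 and -0.16. At 3 DIV, when cytosine arabinoside was added, 17 of 24 were higher by more than 1, against 3.47% of all genes, and at 1 DIV 7 of 24 were, against 1.06%. By 12 and 15 DIV none was. The 22 genes of S phase, which copy DNA, had no stable call by limma (0 of 22), and medians of 0.05, 0.25, 0.58, 0.15, -0.01 and -0.30. At 3 DIV 3 of the 22 were above 1, against 3.47% of all genes.

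*Mki67*, a coat protein of mitotic chromosomes, was 8.99, 8.87, 8.62, 8.80, 8.85 and 8.46 in replicate 1 and 8.74, 7.53, 7.55, 7.93, 8.30 and 8.45 in replicate 2. In replicate 1 it hardly moved over the time course, whereas in replicate 2 it was lower at 1 and 3 DIV and came back to the replicate 1 level by 15 DIV. The stable difference was 0.68 (SE 0.17, limma adjusted p = 0.0393). *Cenpf*, a kinetochore protein, showed 8.11, 7.76, 7.85, 8.0, 7.88 and 7.10 against 7.82, 6.70, 6.57, 7.02, 6.97 and 7.05, a difference of 0.76 (SE 0.16, limma adjusted p = 0.0244). *Nusap1* (0.69) and *Cdc20* (0.64), which act on the spindle and on exit from mitosis, and *Ccna2* (0.48), a cyclin, were also called. Each of the 4 largest lost its call in at least 3 of the 6 fits without 1 pair. Without 1, 3 or 6 DIV 0 of 24 were called in limma, with medians of 0.27, 0.25 and 0.39 in place of 0.40, and without 0, 12 or 15 DIV 5, 4 and 3 were.

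**Figure D3:**
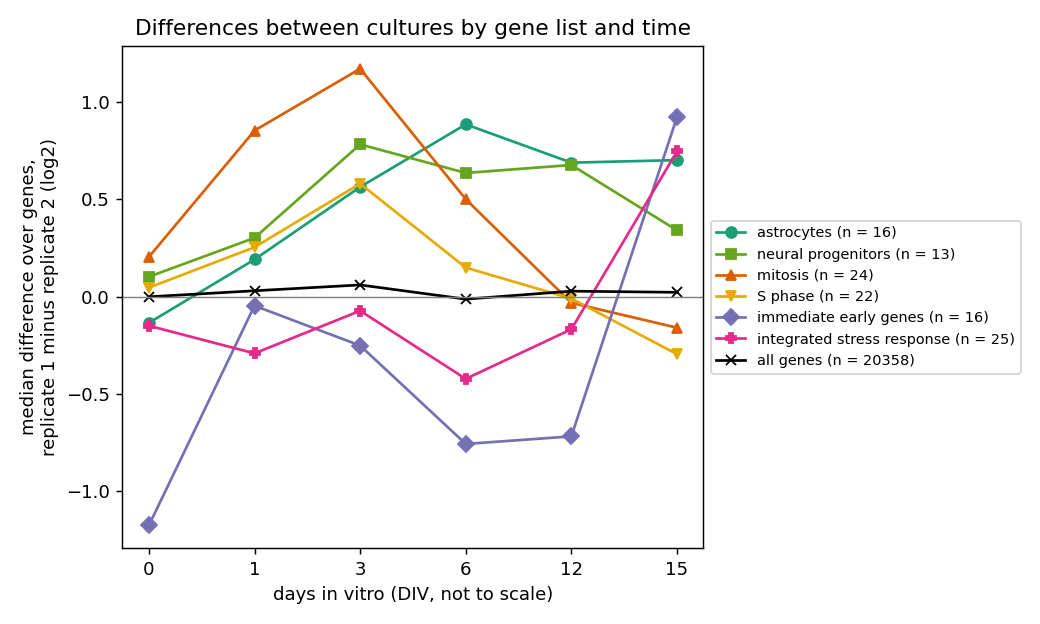
Median over the genes of each list of the difference between cultures (log2, replicate 1 minus replicate 2) by DIV, with all 20358 genes in black. Mitosis genes peak at 1.17 at 3 DIV, astrocyte genes at 0.89 at 6 DIV, and immediate early genes run from -1.18 at 0 DIV to 0.92 at 15 DIV.

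Neural progenitor genes were higher in replicate 1, in the median, at every age. In this list 3 of 13 measured genes were called, all higher in replicate 1, against 5.01% of all genes, with medians by age of 0.10, 0.30, 0.78, 0.64, 0.68 and 0.34. *Sox2*, a transcription factor of progenitors and glia, was 9.23, 8.95, 9.18, 9.45, 9.22 and 9.88 in replicate 1 and 8.64, 7.99, 7.93, 7.69, 8.23 and 8.49 in replicate 2. No value of replicate 2 reached the lowest of replicate 1, and the difference was 1.16 (SE 0.15, limma adjusted p = 0.00335). *Hopx*, a homeodomain protein of radial glia, differed by 1.33 (SE 0.22, limma adjusted p = 0.00982) and *Hes1*, a Notch target, by 0.72 (SE 0.15, limma adjusted p = 0.0232). *Vim* and *Nes*, intermediate filaments of progenitors, were not called, with stable differences of -0.17 and 0.16. The difference of *Nes* was positive up to 6 DIV and negative at 12 and 15 DIV (0.84, 0.21, 0.80, 0.79, -0.72 and -0.94). Leaving out 1 pair gave 2 to 4 calls of 13 and medians of 0.26 to 0.41, with 2 calls without 1, 3 or 6 DIV and 4 without 0 or 12 DIV.

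Neuronal identity genes gave few calls. The counts below stand against 5.01% of all genes called higher in replicate 1 and 2.63% called higher in replicate 2. *Sox4*, a transcription factor of newborn neurons, was 10.78, 10.42, 10.18, 9.76, 9.37 and 9.17 in replicate 1 and 9.53, 9.34, 9.31, 8.51, 8.13 and 7.97 in replicate 2. The gap was close to constant, at 1.15 (SE 0.10, limma adjusted p = 0.000383), although values were lower at later ages in both cultures. Yet it was the only one of 8 newborn neuron genes called, and the median of that list was -0.09. Among 11 GABAergic neuron genes, the interneuron transcription factors *Dlx1* (0.59 (SE 0.11, limma adjusted p = 0.0158)) and *Sp9* (0.50 (SE 0.13, limma adjusted p = 0.0393)) were called. Their calls were kept in 4 and 1 of the 6 fits that leave out a pair. Medians of the GABAergic list by age were 0.27, 0.25, 0.50, 0.05, -0.13 and 0.15. *Neurod6*, of pyramidal neurons, was higher in replicate 1 by 0.64 (SE 0.14, limma adjusted p = 0.0276), the only call among 11 hippocampal and cortical genes. This call was kept in 1 of the 6 fits that leave out a pair, and 1 of the 2 probesets was positive. In the same list *Prox1*, of dentate granule neurons, was raised at 12 DIV alone, by 1.48 (SE 0.25, limma adjusted p = 0.0297), a call lost when adjusted over all 6 ages together (adjusted p = 0.161). *Lhx9*, of other forebrain regions, was lower in replicate 1 by -0.56 (SE 0.15, limma adjusted p = 0.0427), against the direction of its list (1 of 11 called). Of 7 Cajal-Retzius genes 0 passed in limma, although 6 had a positive mean difference and the median was 0.40, the adjusted p of *Lhx5*, *Trp73* and *Ebf3* being 0.0543, 0.0598 and 0.0673. *Reln*, the secreted protein of these cells, went from 0.50 at 3 DIV to -1.20 at 15 DIV.

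Synaptic genes gave calls in both directions, where 5.01% of all genes were called higher in replicate 1 and 2.63% higher in replicate 2. Of 17 synaptic vesicle genes 1 was called, *Cplx2*, a regulator of vesicle fusion, higher in replicate 1 by 0.56 (SE 0.11, limma adjusted p = 0.0183) with only 4 of 9 probesets positive, and *Snap25* differed by 0.21 (adjusted p = 0.208). Of 14 postsynaptic genes, *Grin2a*, an NMDA receptor subunit, and *Dlg4*, the scaffold PSD-95, were lower in replicate 1, by -0.54 (SE 0.11, limma adjusted p = 0.0196) and -0.42 (SE 0.11, limma adjusted p = 0.0416). *Nrgn*, a calmodulin-binding protein of dendritic spines, was higher by 0.87 (SE 0.19, limma adjusted p = 0.0268). The calls of *Cplx2*, *Grin2a*, *Dlg4* and *Nrgn* were kept in 3, 3, 0 and 2 of the 6 fits that leave out a pair. The median of the postsynaptic list was -0.15 and that of the vesicle list -0.06.

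Immediate early genes were lower in replicate 1 at some ages and higher at the last. None of 16 passed the stable test by limma, whose lowest adjusted p among them was 0.0587 (*Nr4a3*). Without the 15 DIV pair *Nr4a1*, *Fosb*, *Npas4* and *Fos* were called and higher in replicate 2, by -1.39, -1.21, -2.17 and -1.50 (limma adjusted p = 0.0232, 0.0347, 0.0373 and 0.047), against 0.698% of all genes in that fit, and the list median was -0.51 in place of -0.30. That fit leaves out the only age with a positive list median, so these calls depend on the choice of pair and are no separate support. No member was called in 3 of the 6 fits that leave out a pair. Median differences by age were -1.18, -0.05, -0.25, -0.76, -0.72 and 0.92. At 0 DIV 10 of the 16 were higher in replicate 2 by more than 1, against 0.865% of all genes. At 6 and 12 DIV 4 and 6 were, against 1.09% and 3.99% of all genes. At 15 DIV 0 were, and 7 were instead higher in replicate 1 by more than 1, against 1.75% of all genes.

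*Fos* was measured at 9.58, 8.85, 9.32, 7.54, 8.02 and 9.27 in replicate 1 and 11.77, 9.13, 9.78, 9.98, 10.14 and 7.59 in replicate 2. Replicate 2 held the higher value at every age up to 12 DIV and the lower at 15 DIV. *Npas4*, a transcription factor induced in neurons by calcium entry, showed the same turn, with 6.87, 7.59, 8.67, 6.97, 6.29 and 8.57 against 9.59, 8.32, 9.34, 10.13, 9.84 and 7.09. *Nr4a1*, *Fosb* and *Egr1* differed by 1.24, 1.12 and 0.86 at 15 DIV, after -1.90, -1.26 and -0.92 at 12 DIV. *Fosl2* departed from the rest, with differences of 1.04, 0.74, 1.16, 0.52, -0.45 and 0.76. It was called without the 12 DIV pair (0.84, limma adjusted p = 0.00834), a fit that leaves out its only negative difference. Of 14 genes that respond later to activity, 5 were higher in replicate 2 by more than 1 at 6 DIV and 4 at 12 DIV. The shares of all genes were 1.09% and 3.99%. At 15 DIV 3 of the 14 were higher in replicate 1 by more than 1, against 1.75% of all genes. *Bdnf*, a neurotrophin, differed by -0.15, -0.18, 0.07, -1.35, -1.26 and 0.69.

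**Figure D4:**
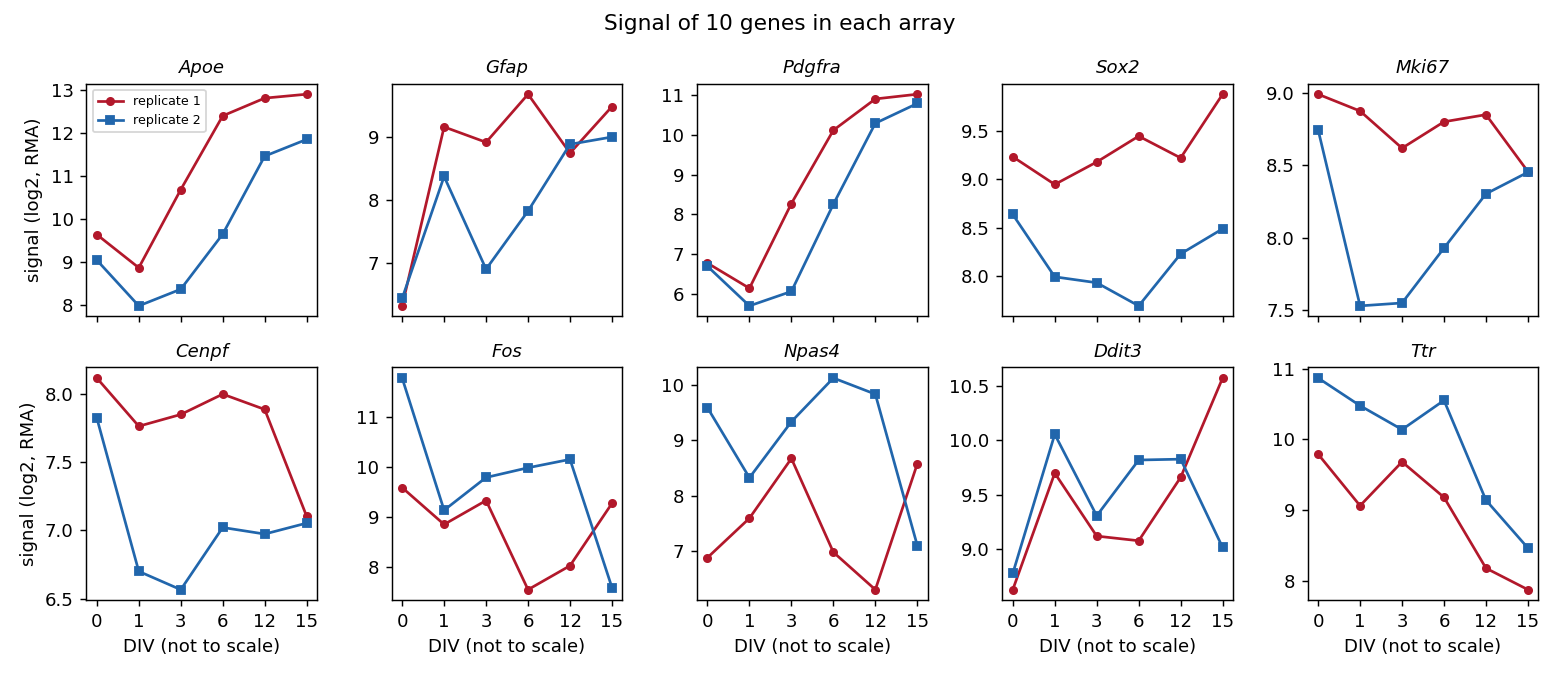
Signal (log2, RMA) of 10 genes in each of the 12 arrays by DIV, replicate 1 in red circles and replicate 2 in blue squares. *Apoe*, *Sox2* and *Ttr* keep 1 order at all 6 ages, *Mki67* and *Cenpf* meet at 15 DIV, and *Fos*, *Npas4* and *Ddit3* change order at 15 DIV.

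The integrated stress response separated the cultures at 15 DIV. The median difference of its 25 measured genes was -0.15, -0.29, -0.07, -0.42, -0.17 and 0.75, and 10 of 25 were higher in replicate 1 by more than 1 at 15 DIV, against 1.75% of all genes, with 1 at 0 DIV and 0 at 1, 3, 6 and 12 DIV. Replicate 2 was the higher by more than 1 in 4 of the 25 genes at 6 DIV, against 1.09% of all genes. *Ddit3*, a transcription factor of the terminal response, gave 8.62, 9.70, 9.12, 9.07, 9.66 and 10.58 in replicate 1 and 8.77, 10.06, 9.30, 9.82, 9.83 and 9.01 in replicate 2. It lay within 0.75 between cultures until 12 DIV and 1.57 apart at 15 DIV. *Slc7a11*, the cystine transporter, differed by -0.64, -1.63, 0.89, -0.07, 0.49 and 1.53. *Trib3*, *Mthfd2* and *Pck2*, a pseudokinase and mitochondrial enzymes of folate and phosphoenolpyruvate metabolism, were 1.01, 1.18 and 1.15 higher at 15 DIV, while *Asns*, asparagine synthetase, and *Phgdh*, of serine synthesis, differed by 0.26 and -0.17. The single stable call was *Ddit4*, an inhibitor of mTOR signalling, at 0.77 (SE 0.19, limma adjusted p = 0.0357), against a list median of -0.12, and no member was called in 4 of the 6 fits that leave out a pair. The deviation of 15 DIV from the other ages passed for 0 genes of any list in limma.

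Promoters of this list are shown because ATF4 and its partners bind the letters TTGCATCA, and because several members were high together in the 15 DIV array of replicate 1. RefSeq windows (GRCm38.p6) from 250 bases before to 50 after the start site were found for 23 members, and 5 of them hold these letters on either strand, against 1.03% of 27025 genes. The list was compiled as genes of a response that runs through ATF4. A share above that of all genes can follow from that choice and is no result about these cultures. Variants of the letters and sites outside the windows were not searched. The matches are in capitals, 5′ to 3′ on the strand of the gene.
*Slc7a11*, chr3:50443642-50443671, minus strand: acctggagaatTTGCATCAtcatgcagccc
*Slc7a11*, chr3:50443661-50443690, minus strand, reverse complement of the letters: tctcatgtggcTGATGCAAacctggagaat
*Atf3*, chr1:191183425-191183454, minus strand: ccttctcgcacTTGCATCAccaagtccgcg
*Chac1*, chr2:119351038-119351067, plus strand: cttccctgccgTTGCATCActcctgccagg
*Nupr1*, chr7:126625562-126625591, minus strand: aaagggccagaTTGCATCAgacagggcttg
*Vldlr*, chr19:27216809-27216838, plus strand: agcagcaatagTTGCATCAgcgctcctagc
At 15 DIV the differences of these 5 genes were 1.53 for *Slc7a11*, 1.22 for *Atf3*, 1.13 for *Chac1*, 1.07 for *Nupr1* and 0.04 for *Vldlr*. Members whose windows hold no match differed as widely, with 1.70 for *Ddit4*, 1.57 for *Ddit3* and 1.18 for *Mthfd2*.

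Other stress lists gave few stable calls. Of 16 hypoxia genes none was called by limma, yet their median was 0.53 at 15 DIV against -0.16 to 0.01 at the other ages, and 14 of the 16 differences were positive there. *Adm*, the vasodilator adrenomedullin, differed by -0.29, -0.13, -0.46, 0.09, -1.40 and 2.48 and *Vegfa*, the vascular growth factor, by 1.34 at 15 DIV. Of 11 oxidative stress genes, *Hmox1*, haem oxygenase, was called at 0.59 (SE 0.16, limma adjusted p = 0.0469), against 5.01% of all genes. Metallothioneins bind zinc, and 2 of 4 genes of that list were called, both higher in replicate 1, against 5.01% of all genes. *Mt3*, the form most abundant in brain, was 10.33, 9.72, 10.72, 12.05, 12.31 and 12.50 in replicate 1 and 9.49, 9.17, 10.16, 10.50, 11.65 and 11.92 in replicate 2. Values were higher at later ages in both cultures, and replicate 1 was the higher at each age, by 0.79 (SE 0.14, limma adjusted p = 0.014). *Mt2* differed by 0.52 (SE 0.12, limma adjusted p = 0.0316) and *Mt1* by 0.16 (adjusted p = 0.544).

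Heat shock genes split. *Dnajb1*, a co-chaperone of HSP70, was higher in replicate 1, at 6.98, 7.87, 7.82, 7.77, 7.72 and 8.06 against 6.24, 6.33, 6.34, 6.60, 6.90 and 6.43. The ranges did not overlap, and the difference was 1.23 (SE 0.14, limma adjusted p = 0.00188). *Hspa8*, the constitutive HSP70, and *Cryab*, a small heat shock protein, were lower by -0.51 (SE 0.11, limma adjusted p = 0.0243) and -0.46 (SE 0.11, limma adjusted p = 0.0285). The list of 10 had a median of -0.02, and none of 13 chaperones of the endoplasmic reticulum was called by limma. Of 14 p53 targets 1 was called higher in replicate 1 and 2 in replicate 2, against 5.01% and 2.63% of all genes. *Bbc3*, which promotes apoptosis, was higher by 0.74 (SE 0.10, limma adjusted p = 0.00488), kept in all 6 fits without 1 pair. *Pmaip1*, with the same role, and *Ei24* were lower by -0.54 and -0.48 (limma adjusted p = 0.0317 and 0.0365). These 2 calls were kept in 2 and 1 of the 6 fits. For *Pmaip1*, 2 of 3 probesets were higher in replicate 1 on average, against the direction of the gene value. *B2m*, the light chain of MHC class I, was the one interferon response gene of 18 called (0.81 (SE 0.15, limma adjusted p = 0.0138)), against 5.01% of all genes. None of 15 inflammation genes passed in limma, and *Ptgs2*, a prostaglandin synthase, followed the immediate early genes with -0.73, -0.64, -0.62, -2.82, -1.55 and 1.08.

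Genes of cholesterol synthesis were lower in replicate 1 in the median. Of 16 measured genes 3 were called, all higher in replicate 2, against 2.63% of all genes, and 14 had a negative mean difference. The medians by age were -0.14, -0.47, -0.20, -0.16, -0.20 and -0.33. *Sc5d*, *Lss* and *Sqle*, enzymes of the sterol branch, differed by -0.51 (SE 0.11, limma adjusted p = 0.0235), -0.44 (SE 0.11, limma adjusted p = 0.0423) and -0.41 (SE 0.10, limma adjusted p = 0.0358), negative at all 6 ages in each. Without 1, 3, 6 or 15 DIV 0 of 16 were called in limma, without 0 or 12 DIV 1 was, and the medians were -0.28 to -0.19.

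Y-linked genes differed while *Xist*, the RNA of the inactive X chromosome, did not pass. *Eif2s3y*, a translation initiation factor, was 8.07, 8.17, 8.19, 7.61, 7.93 and 7.43 in replicate 1 and 6.88, 7.37, 6.89, 7.05, 7.04 and 7.0 in replicate 2. The ranges did not overlap, and the difference of 0.86 (SE 0.13, limma adjusted p = 0.00869) came from 13 of 13 probesets. *Kdm5d*, a histone demethylase, differed by 0.85 (SE 0.14, limma adjusted p = 0.0113) and *Uty* by 0.60 (adjusted p = 0.0935). *Xist* stood at 11.05, 11.15, 11.0, 10.93, 10.62 and 10.17 against 11.10, 11.29, 11.20, 11.08, 10.68 and 10.61, a difference of -0.17 (95% confidence interval -0.40 to 0.05, adjusted p = 0.307). *Ddx3y* was not analysed here. *Ssty2*, also Y-linked, had the opposite sign, as given above.

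Some genes often used as references differed between the cultures. *Ywhaz*, a 14-3-3 protein, was 11.31, 11.37, 11.93, 11.67, 11.89 and 11.19 in replicate 1 and 9.30, 9.76, 10.0, 9.97, 10.07 and 10.03 in replicate 2, with no overlap and a difference of 1.71 (SE 0.13, limma adjusted p = 8.15e-05), from 4 of 6 probesets. *Gapdh*, a glycolytic enzyme read by a single probeset, was lower by -0.55 (SE 0.13, limma adjusted p = 0.0324), *Gusb*, a lysosomal enzyme, was higher by 0.43 (SE 0.11, limma adjusted p = 0.0474), and *Actb*, cytoplasmic actin, differed by -0.33 (adjusted p = 0.11). The call of *Gapdh* was kept in 1 of the 6 fits that leave out a pair, and that of *Gusb* in 0. The list of 9 had a median of -0.05.

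Replication-dependent histones, which lack poly(A) tails, had 7 of 36 genes called and higher in replicate 1 and 0 in replicate 2, against 5.01% of all genes. *H2ac4*, *H2ac8*, *H2ac15* and *H1f4* differed by 1.13, 1.12, 1.09 and 0.95 (limma adjusted p = 0.0145, 0.0173, 0.00642 and 0.0129). Levels of the first 3 were low, with replicate 2 between 3.37 and 5.06. Medians of the histone list by age were 0.39, 0.38, 0.11, 0.24, 0.27 and 0.28, against 1.17 for the mitosis list at 3 DIV. Near-identical copies make single histone genes uncertain. Of 66 ribosomal protein genes 3 were called, *Rpl13* (0.92), *Rpl10a* (0.54) and *Rpl39* (0.37), near the 5.01% of all genes. Of 48 small non-coding RNAs, *Snora52* (1.33 (SE 0.16, limma adjusted p = 0.00248)), *Rnu3a* (0.66) and *Scarna17* (0.50) were higher and *Snord37* lower (-0.61 (SE 0.13, limma adjusted p = 0.0223)). The shares of all genes were 5.01% and 2.63%.

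Odorant receptors, which hippocampal cells are not known to use, serve as a readout of dim probesets. Of 985 genes 3 were called and higher in replicate 1 and 15 in replicate 2, 0.305% and 1.52%, both below the shares of all genes. The 3 were *Olfr1247* (1.61), *Olfr1015* (0.79) and *Olfr1029* (0.61), and the largest of the 15 were *Olfr512* (-0.98), *Olfr550* (-0.93) and *Olfr124* (-0.92). The median difference of the 985 was 0.37 at 12 DIV and between -0.22 and -0.05 at the other ages. At 12 DIV 113 of the 985 were higher in replicate 1 by more than 1, against 5.93% of all genes. Without the 12 DIV pair 2 were called higher in replicate 1 (0.203%, against 3.98% of all genes) and 32 in replicate 2 (3.25%, against 1.77%), so that the share higher in replicate 2 was then above that of all genes.

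Genes raised at 12 DIV alone were mostly dim, and those lowered were not mostly bright. Of the 175 raised genes 169 were among the 6786 dimmest, and 0 among the 6786 brightest. The 97 lowered genes fell 22 among the dimmest, 51 in the middle and 24 among the brightest. With the trend of the difference on mean signal removed at each age, an alternative chosen after seeing the data, 3 were raised and 23 lowered, and adjusted over all 6 ages together 0 passed in either direction. *Speer1*, a spermatogenesis-associated gene, was 4.04, 3.37, 3.51, 3.87, 7.78 and 4.10 in replicate 1 and 4.84, 4.59, 4.11, 3.18, 3.26 and 3.69 in replicate 2, and *Olfr1140* and the histone *H2bc9* were raised likewise, by 4.82, 3.61 and 3.47 over the other ages. *Tomm5*, a subunit of the mitochondrial import pore, was 7.20, 8.12, 6.66, 7.41, 3.71 and 8.02 against 7.16, 8.71, 8.33, 8.69, 8.99 and 8.64. The 12 DIV value of replicate 1 was the lowest of the 12, a deviation of -4.46 (SE 0.52, limma adjusted p = 0.0149), although 1 of its 2 probesets was positive on average. *Hnrnph2*, an RNA-binding protein, and *Gm12026* were lowered by -3.54 and -3.30, the ribosomal protein paralogue *Rpl22l1* by -2.49, and *Olfr1166* was raised by 2.37.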

How the data were processed

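The authors deposited log2 values per probeset, made by RMA (background correction, quantile normalization and summary) from all arrays. A genome build for the probesets was not given in the sources used here. Labelling kits are named differently by the labels and the methods. Of 241576 probesets, those with a single gene symbol (212138) entered the analysis, and 4672 with several and 24766 with none did not, and 2743 symbols were updated. The 50% most variable probesets of each gene were combined by median polish, after the methods, giving 20358 genes, 2257 of them read by 1 probeset. Variability was taken over the arrays of both replicates, so probesets that differ between the cultures could be kept more often. The selection was thus not independent of the stable difference. All probesets gave 604 genes higher in replicate 1 and 331 higher in replicate 2, against 1019 and 536. Whether the selection accounts for this gap was not tested. For arrays, their number limits the precision.

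Paired differences were fitted with limma 3.58.1 in R 4.3.3 (5 residual and 5.64 prior degrees of freedom for the stable difference), which equals a model with age and replicate. Every adjusted p is limma's with Benjamini-Hochberg adjustment over all genes. Pairing by age rests on the labels. Differences at 2 ages correlated across genes with r of 0.11 to 0.46 (median 0.30, 15 pairs of ages). The procedure was tested on simulated data.

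Named genes were the 10 largest stable differences each way with 1 sign at all 6 ages, the 5 largest shifts each way (none passed), the 3 largest each way at a single age, up to 4 called members of each of 35 lists (and up to 2 called at 1 age, and called members against their list), and 14 fixed genes. The replicates, lists and tests were chosen with earlier results of these data known. Alternatives were other probeset summaries, centring, quantile normalization, a filter on dim genes, an intensity trend, no age term, other windows, and leaving out each pair.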

Additional observations from a re-analysis of the deposited data

Results flagged for a closer look

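At 12 DIV the difference between the cultures departed from that at the other 5 ages in a test of the deviation itself, raised in 175 genes and lowered in 97. The effects of the age, the 12 DIV array of replicate 1 and its signal range cannot be told apart with 1 array for each culture.

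Probesets with no gene symbol, which no comparison above used, also differed between the arrays of the replicates. Of 24766 such probesets, 13 were higher in replicate 1 by more than 3, and 3 were lower by more than 3. Among the 212138 probesets with 1 symbol the counts were 33 and 12. The medians of the 13 were 10.71, 11.12, 11.06, 9.64, 11.93 and 9.59 in replicate 1 and 6.13, 6.13, 6.14, 6.25, 6.11 and 6.20 in replicate 2. The paired arrays were thus far apart at each age, and within replicate 1 the 6 and 15 DIV arrays were lower than the other 4. The largest, probeset 10338017, differed by 7.96. What these probesets detect was not given in the sources used here, so whether they read RNA of the cultures is not known.

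Among 99 named genes, 35 list medians and the SD over genes, 13 had 1 age whose paired difference lay beyond Dixon's 95% critical value for 6 values, where chance gives about 1 in 20. Several of these genes were named for their difference at 12 DIV. The difference that stood apart was at 12 DIV in 6 of them, at 4.51 for *Speer1*, 3.18 for *Olfr1140*, -5.29 for *Tomm5*, -3.50 for *Gm12026*, 1.28 for *Prox1* and a median of 0.37 for the odorant receptors. At 0 DIV it was -4.04 for *Gm5458*, -0.051 for *Tyrobp* and -0.14 for *Sc5d*, the last 2 being nearer to 0 than at the other ages. At 3 DIV *Cdc20* gave 1.45 and at 6 DIV *Mt3* gave 1.55. At 15 DIV the median of the integrated stress response list was 0.75 and that of the hypoxia list 0.53.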

How the results depend on the processing

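Counts of genes with a stable difference moved with the processing, while no named gene changed direction with a call. From 1019 genes higher in replicate 1 and 536 higher in replicate 2, all probesets gave 604 and 331, and a fit without the age term 238 and 73. In replicate 2 the count was 946 with arrays centred, 859 with quantile normalization, 843 without the dimmest genes and 1042 with an intensity trend and robust variances. Leaving out 1 pair gave 278 to 1082 and 95 to 540. Windows of 12 and 15 DIV against the rest, and a slope over days, left the shift at 0 genes, and leaving out 1 pair gave 0 to 1 lowered late. At 12 DIV the raised count was 419 with all probesets, 296 with arrays centred, 61 with quantile normalization, 1 without the dimmest genes and 3 with the signal trend removed, and the lowered count was 30 without the dimmest genes and 23 with the trend removed. Adjustment over all 6 ages gave 0 and 0. Leaving out 1 other pair gave 61 to 176 raised and 37 to 89 lowered. No gene passed at another single age under any of these. Removing the dimmest genes removes most of the raised ones by construction, and otherwise the cause was not tested. Of 80 named genes called, 45 lost the call in at least 1 fit that leaves out a pair, and 8 lost it in all 6. The 8 were *Rnu3a*, *Hmox1*, *Lhx9*, *Lss*, *Gusb*, *Dlg4*, *Sqle* and *Rpl39*. No paired analysis by replicate number was possible because that number is the comparison itself, and the fit was paired by age instead.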
